A study of Mus musculus with 18 samples.

Results

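Collagen genes were taken as the rows whose symbol is Col, a type number, the letter a and a chain number. The rule found 44 genes among the 21959 rows of the MEF table and the same number among the 51826 rows of the liver table. They were divided by the structure that their chains build into 11 fibrillar, 8 basement membrane and 25 other collagens. The measurements are RNA-seq read counts per gene from mice in which repeat B of *Xist* was deleted. RepB-/- females carried the deletion on both X chromosomes, made with CRISPR/Cas9 and a pair of guides flanking the repeat, and WT libraries were the controls. The study's methods name ICR females as the mice bought for it. There were 4 groups of 3 libraries, RepB-/- and WT primary mouse embryonic fibroblasts (MEFs, grown in DMEM with serum) and RepB-/- and WT liver. The MEF labels also name the tail as tissue, and the labels used here give neither age, sex nor animal for any library.

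Collagens are proteins of the extracellular matrix in which 3 chains wind into a triple helix. Fibrillar collagens (types I, II, III, V, XI, XXIV and XXVII) pack into the fibrils of skin, tendon, bone and cartilage. Type IV chains form the sheet-like network of basement membranes, where types XV and XVIII are found as well. The remaining types lie on fibril surfaces, form beaded microfibrils or hexagonal lattices, anchor the epidermis or span the plasma membrane. Fibroblasts are the main makers of fibrillar collagen, and in liver most of it comes from stellate cells and portal fibroblasts.

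Some properties of the libraries bear on every value that follows. Since *Xist* is not among the rows of the MEF table, the labels could not be checked on the targeted gene there. Y-linked genes (4 were summed) had 4 counts or fewer in each MEF library. MEF libraries held between 11540344 and 20587556 counts and liver libraries between 37682201 and 51542709. The WT MEF libraries were the shallower, at 16347806 counts or fewer against 20005541 or more in RepB-/-. Even so, more genes had counts in them, 17191 to 17664 against 15453 to 15545 in RepB-/-. Genes at low levels are thus to be read with this difference in mind, and its cause was not tested. The liver library labelled RepB-/- replicate 2 held 4342 counts of the Y-linked genes and 4 counts of *Xist*, whereas the other 5 liver libraries held 0 or 1 Y-linked count and between 14494 and 26345 counts of *Xist*. It goes against the study's description of females, and the liver values of the chains described below are given with and without it. Replicate 1 of both liver genotypes also stood apart. These markers were chosen after their values were seen. *Afp*, the fetal counterpart of albumin, was at 507, 4.21 and 6.04 CPM (counts scaled to the TMM-adjusted library size) in RepB-/- replicates 1 to 3 and at 369, 6.04 and 2.79 CPM in WT. *H19*, an imprinted RNA of fetal liver, was at 3879.9, 1.87 and 12.5 CPM and 3541, 0.878 and 0.465 CPM in the same order.

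In MEFs, the fibrillar and the basement membrane collagens moved in opposite directions. Of the 11 fibrillar genes tested, 6 rose in RepB-/- cells, 1 fell and 4 did not pass the test. Of the 8 basement membrane genes tested, none rose, 6 fell and 2 did not pass. Among the 6, *Col4a4*, *Col4a6* and *Col15a1* were low, at 6.12 CPM or less in every library. Among the 18 other collagens tested, 4 rose and 3 fell. The median log2 fold change of RepB-/- over WT was 0.50 for the fibrillar genes, -0.51 for the basement membrane genes and 0.16 for the other types, beside 0.00030 for all 13306 genes tested. The calls are those of edgeR's quasi-likelihood test at an adjusted p of 0.05, under which 19.4% of all genes tested rose and 19.7% fell. In all, 10 of the 37 collagen genes tested rose and 10 fell. The libraries of the genotypes did not overlap for 21 of the 37, and for 52.2% of all genes tested. The class counts kept their balance when each library was left out in turn, with 4 to 7 fibrillar genes higher and 4 to 7 basement membrane genes lower, and when type IV alone was counted (4 of 6 lower) or the anchoring collagen *Col7a1* was added (7 of 9 lower). In bulk RNA, fewer cells of a kind and less RNA per cell cannot be told apart.

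**Figure D1:**
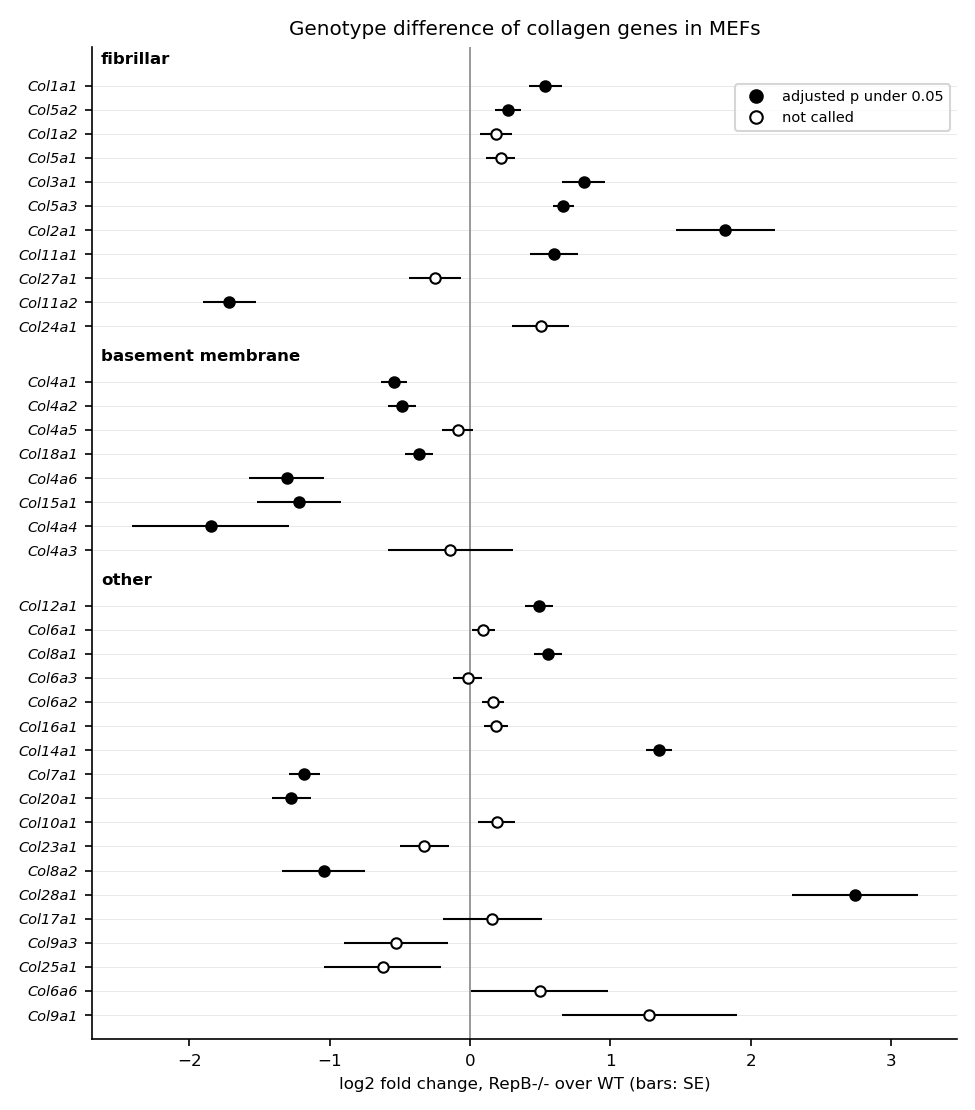
Log2 fold change of RepB-/- over WT with its standard error (horizontal axis) for the 37 collagen genes tested in MEFs, grouped by class and ordered within a class by mean CPM. Filled points passed an adjusted p of 0.05. No basement membrane gene lies to the right of 0, and 9 of the 11 fibrillar genes do.

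The same contrast was seen in the make-up of the collagen mRNA. Fibrillar genes took 73.5, 72.1 and 71.9% of all collagen counts in RepB-/- replicates 1 to 3 and 68.1, 68.4 and 68.8% in WT. Basement membrane genes took 7.20, 7.59 and 7.65% in RepB-/- and 12.7, 13.1 and 12.4% in WT. The 3 libraries of each genotype lay within 2 percentage points of each other for either class and did not overlap with those of the other genotype. The summed CPM of the fibrillar genes was 10.2, 9.50 and 9.41 times that of the basement membrane genes in RepB-/- and 5.34, 5.21 and 5.54 times in WT. This ratio within a library does not depend on how libraries are scaled to each other. Collagens together took 3.44% ± 0.19 (SD, n = 3) of all counts in RepB-/- and 3.06% ± 0.30 in WT. The lowest RepB-/- library, at 3.27%, lay just above the highest WT library, at 3.25%.

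**Figure D2:**
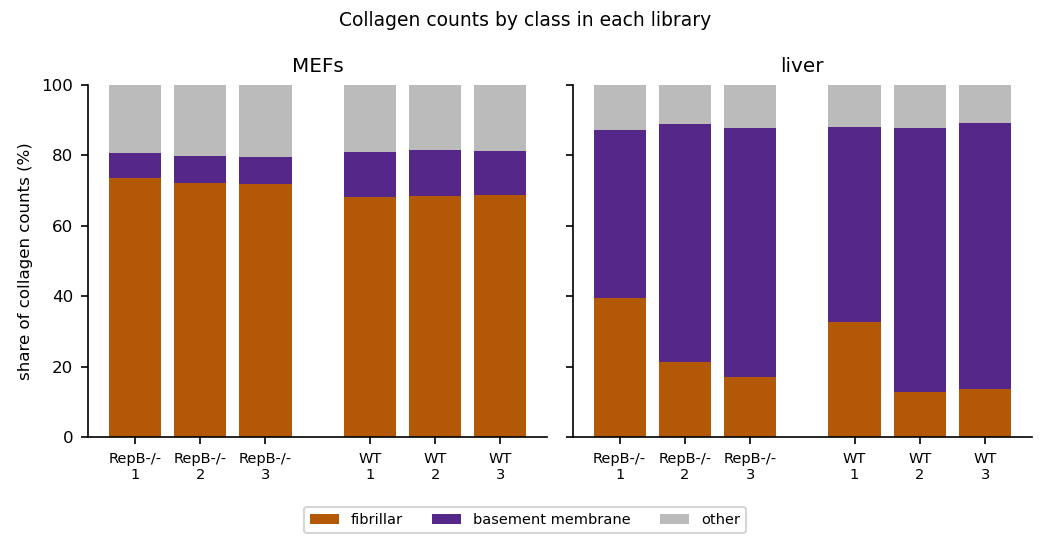
Share of all collagen counts (vertical axis, percent) taken by fibrillar, basement membrane and other collagens in each of the 6 MEF libraries (left) and the 6 liver libraries (right). In MEFs basement membrane genes took 7.20 to 7.65% in RepB-/- and 12.4 to 13.1% in WT, and in liver replicate 1 of both genotypes had the largest fibrillar shares (39.4 and 32.6%).

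Type I collagen, the main component of skin and bone fibrils, is a trimer of 2 chains of *Col1a1* and 1 of *Col1a2*. *Col1a1* (ENSMUSG00000001506, chr11:94827050-94843868 on the plus strand, GRCm39) was at 9753, 8991 and 8560.0 CPM in RepB-/- replicates 1 to 3 and at 5076, 6971 and 6758 CPM in WT. The genotypes did not overlap, and the gene rose 1.45-fold, with a log2 fold change of 0.54 ± 0.12 (SE) and an adjusted p of 0.00243. Its partner *Col1a2* was at 5139, 4466 and 3916 CPM in RepB-/- and at 3342, 4257 and 4293 CPM in WT. These ranges overlapped, and the log2 difference of 0.19 ± 0.12 did not pass (adjusted p = 0.224). The ratio of *Col1a1* to *Col1a2* counts was 1.90, 2.01 and 2.19 in RepB-/- and 1.52, 1.64 and 1.57 in WT (2.03 ± 0.15 and 1.58 ± 0.06, SD, n = 3). The exact two-sided permutation test gave p = 0.1, the smallest that 3 libraries against 3 can give, and 0.343 after Benjamini-Hochberg adjustment over the 12 ratios compared.

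**Figure D3:**
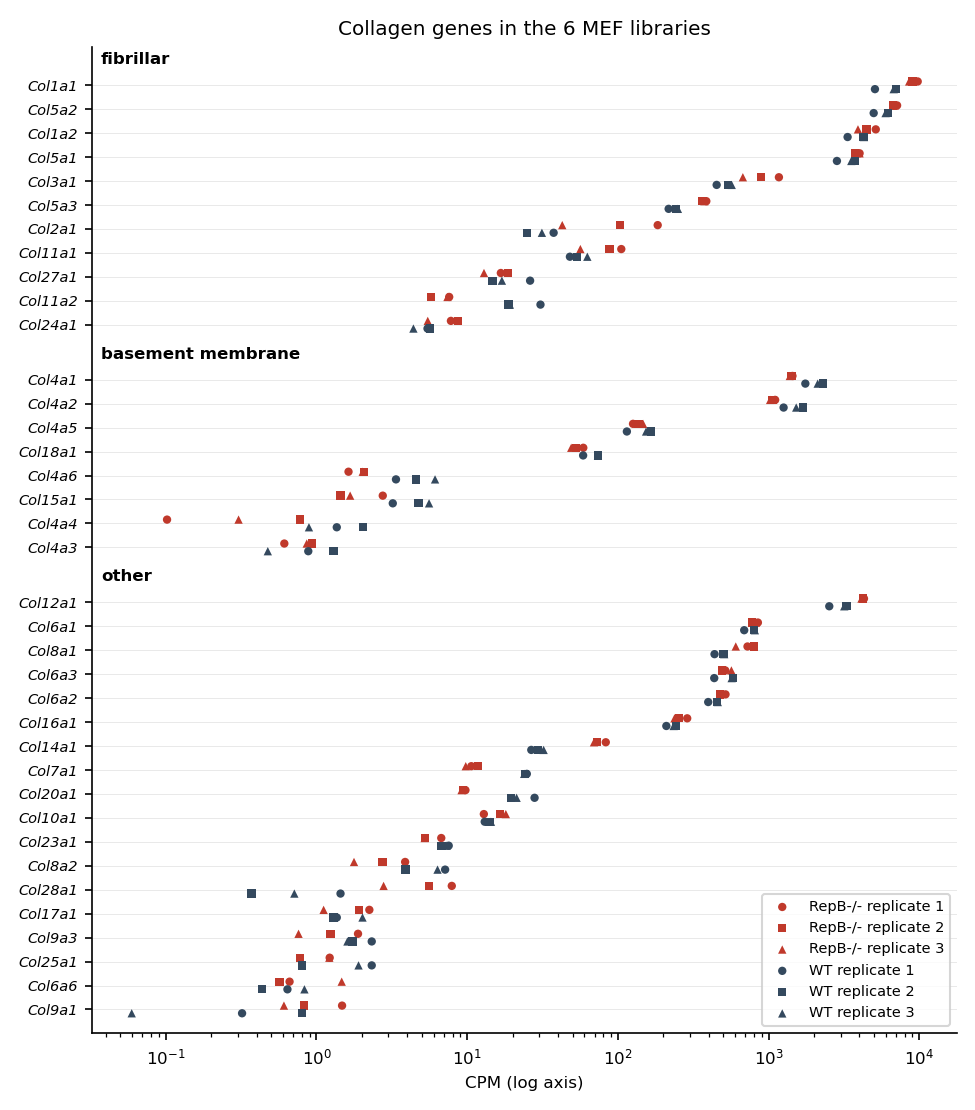
CPM on a log axis (horizontal) of the 37 collagen genes tested in each of the 6 MEF libraries, with RepB-/- in red and WT in dark blue and 1 marker shape per replicate number. Levels reach up to 9753 CPM (*Col1a1* in RepB-/- replicate 1), and the genotypes separate clearly for *Col5a3*, *Col11a2*, *Col7a1* and *Col14a1*.

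Type III collagen, a homotrimer of *Col3a1* that accompanies type I in distensible tissues, was at 1170.3, 888 and 675 CPM in RepB-/- and at 452, 538 and 569 CPM in WT. The genotypes did not overlap, and RepB-/- replicate 3 was the nearest to WT. The gene rose 1.75-fold (log2 0.81 ± 0.15, adjusted p = 0.000990), and its ratio to *Col1a1* overlapped between genotypes (0.0992 ± 0.0206 in RepB-/- and 0.0835 ± 0.0060 in WT).

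Type V chains regulate how thick type I fibrils become. *Col5a3* was at 386, 365 and 375 CPM in RepB-/- and at 217, 242 and 250.1 CPM in WT and rose 1.59-fold (log2 0.67 ± 0.07, adjusted p = 2.20e-05). Its standard error was the smallest of the 37 genes. *Col5a2* lies tail to tail with *Col3a1* on chromosome 1, 24614 bases away, and was at 7119.6, 6695 and 6859 CPM against 4978, 6187 and 5971 CPM. Its rise of 0.27 ± 0.10 was the smallest among the collagen genes called (adjusted p = 0.0366), and it did not pass without RepB-/- replicate 1, 2 or 3 or WT replicate 3 (adjusted p = 0.0674 to 0.122) or with replicate number as a block (0.0872). *Col5a1*, the chain found in most type V trimers, differed by 0.22 ± 0.10 and was not called, although the genotypes did not overlap (adjusted p = 0.102).

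The cartilage fibril genes split. Type II collagen, *Col2a1*, is the main fibril of cartilage, and types XI and IX accompany it there. *Col2a1* was at 184, 103 and 42.7 CPM in RepB-/- and at 37.4, 24.9 and 31.3 CPM in WT, a rise of 3.53-fold (log2 1.82 ± 0.36, adjusted p = 0.00134). The RepB-/- libraries differed more than 4-fold among themselves, and the lowest of them was close to the highest WT library. Without RepB-/- replicate 1, the highest, the log2 fold change was 1.23 (adjusted p = 0.00454). *Col11a1* was at 105, 87.8 and 56.4 CPM against 48.0, 53.3 and 62.7 CPM and rose by 0.60 ± 0.17 on the log2 scale (adjusted p = 0.0127), with replicate 3 inside the WT range. The call was lost without RepB-/- replicate 1 (adjusted p = 0.0737) and in DESeq2 (0.0746). *Col11a2*, the other regulatory chain of type XI, went the opposite way, from 30.6, 18.8 and 19.2 CPM in WT to 7.59, 5.73 and 7.399 CPM in RepB-/-. It fell 3.28-fold with no overlap (log2 -1.71 ± 0.19, adjusted p = 2.00e-05) and was the only fibrillar gene to fall. Among the 5 chondrocyte markers tested, *Sox9*, the transcription factor of cartilage, and *Comp*, a cartilage matrix protein, rose (log2 0.74 ± 0.18 and 0.70 ± 0.09, adjusted p = 0.00587 and 9.10e-05). The other 3 did not pass, and *Matn1* was at 3 counts or fewer in every library. Over all genes tested, 19.4% rose. *Sox9* stood at 45.0, 42.5 and 23.8 CPM in RepB-/- replicates 1 to 3 and at 22.2 ± 2.2 CPM in WT (SD, n = 3). Its RepB-/- replicate 3 was thus close to the WT mean. *Comp* was at 63.4 ± 4.7 CPM in RepB-/- and 39.0 ± 4.1 CPM in WT. The 6 markers summed to 109 to 129 CPM in RepB-/- and 77.4 to 89.3 CPM in WT, and their part in the *Col2a1* result was not tested. Of the type IX chains, *Col9a1* and *Col9a3* were at 0.0594 to 2.33 CPM and were not called, and *Col9a2* was not tested. *Col24a1* and *Col27a1* completed the class with log2 differences of 0.50 ± 0.20 and -0.25 ± 0.19, neither of them called.

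Windows of 250 bases before the annotated start (RefSeq, GRCm38.p6) are shown for *Col3a1* and *Col5a3*, fibrillar genes that rose, because the pair differs in base composition. They lie at chr1:45311288-45311537 on the plus strand and at chr9:20815068-20815317 on the minus strand, and each is written 5′ to 3′ on the strand of its gene. Capitals mark the CCAAT box, the TATAAA element and the Sp1-type GGGCGG box, searched on both strands, so that a box on the opposite strand reads as its reverse complement.
Col3a1: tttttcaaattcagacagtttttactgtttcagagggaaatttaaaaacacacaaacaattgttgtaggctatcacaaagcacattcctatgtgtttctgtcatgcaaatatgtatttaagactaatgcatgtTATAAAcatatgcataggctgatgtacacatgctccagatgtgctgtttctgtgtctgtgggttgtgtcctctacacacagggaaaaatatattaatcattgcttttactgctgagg
Col5a3: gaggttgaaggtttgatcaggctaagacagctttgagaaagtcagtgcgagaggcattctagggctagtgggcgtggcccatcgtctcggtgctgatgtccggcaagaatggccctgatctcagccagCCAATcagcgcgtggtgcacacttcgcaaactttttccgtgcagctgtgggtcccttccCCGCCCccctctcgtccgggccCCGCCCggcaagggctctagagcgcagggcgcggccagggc
The window of *Col3a1* is 35.2% G or C and holds 1 TATAAA, and that of *Col5a3* is 62.8% G or C and holds 1 CCAAT and 2 GGGCGG. The median of all 32817 windows is 52.4% G or C. The RefSeq table matched 35 of the 44 collagen genes, with 38 windows. CCAAT was present in 34.2% of these and in 33.8% of all windows, TATAAA in 13.2 and 12.4%, and GGGCGG in 57.9 and 32.7%.

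Type IV collagen of most basement membranes is a trimer of 2 chains of *Col4a1* and 1 of *Col4a2*. *Col4a1* (ENSMUSG00000031502, chr8:11248423-11362826, minus strand, GRCm39) was at 1439, 1416 and 1383 CPM in RepB-/- and at 1753, 2298 and 2116 CPM in WT. It fell 1.46-fold (log2 -0.54 ± 0.10, adjusted p = 0.000666). *Col4a2* (ENSMUSG00000031503, chr8:11362805-11499287, plus strand) was at 1105, 1061 and 1023 CPM in RepB-/- and at 1257, 1683 and 1524 CPM in WT and fell too (log2 -0.49 ± 0.10, adjusted p = 0.00169). The 3 RepB-/- libraries lay close together and below every WT library for both genes. The ratio of *Col4a1* to *Col4a2* counts was 1.33 ± 0.02 in RepB-/- and 1.38 ± 0.02 in WT (SD, n = 3), without overlap. Set against the main fibrillar chain, *Col4a1* was at 0.148, 0.157 and 0.162 counts per count of *Col1a1* in RepB-/- and at 0.345, 0.330 and 0.313 in WT (exact permutation p = 0.1, the smallest possible here, and 0.343 adjusted over the 12 ratios).

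Both genes start from the same place and are read in opposite directions. The 22 bases at which their annotated bodies overlap, at chr8:11312805-11312826 in GRCm38.p6, are shown on the plus strand, in capitals throughout because both genes contain all of them.
Shared: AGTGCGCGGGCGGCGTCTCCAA
The next pair of type IV genes is arranged in the same way, with 71 bases between the starts of *Col4a4* and *Col4a3* on chromosome 1. These chains belong, with *Col4a5*, to the network of the kidney glomerulus. Both were rare in MEFs. *Col4a4* was at 0.102, 0.775 and 0.304 CPM in RepB-/- and at 1.36, 2.04 and 0.891 CPM in WT and was called lower (log2 -1.85 ± 0.56, adjusted p = 0.0185). The call rested on few counts and was lost without RepB-/- replicate 1, RepB-/- replicate 3 or WT replicate 2 (adjusted p = 0.0682 to 0.0882), and the log2 fold change was -2.77 without RepB-/- replicate 2. *Col4a3* was at 0.612, 0.930 and 0.862 CPM against 0.882, 1.299 and 0.475 CPM and was not called (log2 -0.14 ± 0.45).

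Another such pair lies on the X chromosome, which carries *Xist*, and 1 of its members was called. *Col4a5* (chrX:140258381-140472230, plus strand, GRCm39), the chain altered in X-linked Alport syndrome, was at 126, 137 and 147 CPM in RepB-/- and at 115, 166 and 154 CPM in WT. The groups overlapped and the log2 difference was -0.09 ± 0.11 (adjusted p = 0.561). Without WT replicate 1 it was -0.23 (adjusted p = 0.0122), and without WT replicate 2 it was 0.02. *Col4a6* (chrX:139948399-140257072, minus strand), its neighbour 1308 bases away, was at 1.63, 2.07 and 2.03 CPM in RepB-/- and at 3.37, 4.58 and 6.12 CPM in WT. It fell 2.47-fold with no overlap (log2 -1.31 ± 0.27, adjusted p = 0.00192). The 250 bases before the start of each gene are shown because 1 of these neighbours was called lower and the other was not, at chrX:141474077-141474326 on the minus strand and chrX:141475169-141475418 on the plus strand (RefSeq, GRCm38.p6), with capitals as above.
Col4a6: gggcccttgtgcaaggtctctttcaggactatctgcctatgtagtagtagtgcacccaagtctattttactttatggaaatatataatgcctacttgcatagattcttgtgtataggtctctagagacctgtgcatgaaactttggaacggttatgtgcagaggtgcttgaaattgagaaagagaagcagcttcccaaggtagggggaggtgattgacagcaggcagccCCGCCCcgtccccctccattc
Col4a5: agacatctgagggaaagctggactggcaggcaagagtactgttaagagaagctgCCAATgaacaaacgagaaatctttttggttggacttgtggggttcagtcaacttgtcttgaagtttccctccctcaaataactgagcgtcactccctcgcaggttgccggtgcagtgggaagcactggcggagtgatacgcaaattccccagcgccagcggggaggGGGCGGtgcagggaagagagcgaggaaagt
Each window holds 1 GGGCGG, and that of *Col4a5* also holds 1 CCAAT.

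The 2 basement membrane genes outside type IV, whose C-terminal fragments restin and endostatin act on blood vessels, fell as well. *Col15a1* was at 2.75, 1.45 and 1.67 CPM in RepB-/- and at 3.21, 4.76 and 5.58 CPM in WT (log2 -1.22 ± 0.30, adjusted p = 0.00562). *Col18a1*, the more abundant, was at 58.9, 53.0 and 49.0 CPM in RepB-/- and at 58.8, 73.5 and 73.7 CPM in WT, and it fell (log2 -0.36 ± 0.10, adjusted p = 0.0112) with overlapping groups. It was not called without RepB-/- replicate 2, RepB-/- replicate 3 or WT replicate 3 (adjusted p = 0.0509 to 0.0611).

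Marker lists of smooth muscle and endothelium, cells that make basement membrane, and of epithelium are set beside this class. Of the 6 smooth muscle and myofibroblast markers, *Acta2*, *Cnn1*, *Actg2* and *Myh11* fell (log2 from -1.99 for *Myh11* to -0.76 for *Acta2*), and the list summed to 2028 to 2468 CPM in RepB-/- and 3101 to 4751 CPM in WT. Of the 6 endothelial markers tested, 5 fell, among them *Vwf*, *Pecam1*, *Kdr* and *Emcn* (log2 from -2.22 to -0.85), and 1 rose. The whole list of 8 was low, at 23.4 to 27.2 CPM in RepB-/- and 40.5 to 47.3 CPM in WT, against 2607 to 4234 CPM for the basement membrane collagens. Keratinocyte and epithelial genes went the other way, at 7.25 to 13.6 CPM in RepB-/- and 5.85 to 6.95 CPM in WT, with 1 of 6 tested higher and 0 lower. Skeletal muscle genes summed to less in RepB-/- too (56.8 to 67.1 CPM, and 133 to 198 CPM in WT). So did Schwann cell and neuronal genes (5.61 to 7.04 CPM, and 10.02 to 11.8 CPM in WT). Osteoblast and adipocyte genes summed to more in RepB-/-, as given below. Of all genes tested, 19.4% rose and 19.7% fell. The part of any of these cells in the type IV result was not tested.

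The other collagens followed no common direction, and the largest changes were again in both directions. Among the fibril-associated types, *Col14a1*, which decorates fibrils of tendon and skin, was at 83.1, 72.9 and 69.4 CPM in RepB-/- and at 26.6, 29.6 and 32.1 CPM in WT. It rose 2.54-fold and had the smallest p of all collagen genes (log2 1.35 ± 0.10, adjusted p = 4.79e-07). *Col12a1*, its abundant relative, was at 4292, 4238 and 4133 CPM against 2526, 3292 and 3175 CPM (log2 0.49 ± 0.10, adjusted p = 0.00163). *Col20a1*, from the same subgroup, fell from 27.99, 19.5 and 21.3 CPM in WT to 9.73, 9.40 and 9.17 CPM in RepB-/- (log2 -1.27 ± 0.14, adjusted p = 1.94e-05). *Col16a1* differed by 0.18 ± 0.08 and was not called.

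Type VI collagen, which forms beaded microfibrils around cells, gave no call for its main chains. *Col6a1*, *Col6a2* and *Col6a3* were at 397 to 849 CPM in all MEF libraries and differed by 0.09 ± 0.08, 0.16 ± 0.08 and -0.01 ± 0.10 on the log2 scale. *Col28a1*, a related chain, had the largest fold change of the family. It was at 7.90, 5.58 and 2.79 CPM in RepB-/- and at 1.44, 0.371 and 0.713 CPM in WT, a low level at which it rose 6.69-fold without overlap (log2 2.74 ± 0.45, adjusted p = 0.000392).

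The short-chain collagens of type VIII, which form the lattice of Descemet's membrane and are made by vascular and mesenchymal cells, split between their chains. *Col8a1* was at 724, 799 and 605 CPM in RepB-/- and at 438, 502 and 507 CPM in WT and rose by 0.56 ± 0.10 (adjusted p = 0.000718). *Col8a2* was at 3.87, 2.74 and 1.77 CPM against 7.14, 3.90 and 6.36 CPM and fell (log2 -1.04 ± 0.29, adjusted p = 0.0126), a call lost without RepB-/- replicate 3 (adjusted p = 0.0525). *Col10a1*, the marker of hypertrophic cartilage, was not called (log2 0.19 ± 0.13). *Col7a1* forms the anchoring fibrils that tie the epidermal basement membrane to the dermis. It was at 10.7, 11.8 and 9.78 CPM in RepB-/- and at 24.9, 24.3 and 23.9 CPM in WT, with no overlap, and fell 2.27-fold (log2 -1.18 ± 0.11, adjusted p = 5.00e-06). Among the transmembrane collagens, *Col17a1*, *Col23a1* and *Col25a1* were at 0.775 to 7.54 CPM and none was called.

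In all, 7 members could not be tested in MEFs because of low counts. *Col13a1* and *Col26a1* were at 3 counts or fewer in every library. *Col6a4*, *Col6a5*, *Col9a2*, *Col19a1* and *Col22a1* had at most 6, 7, 8, 7 and 10 counts in any library. *Col6a5*, chosen here after its values were seen, was at 2, 2 and 3 counts in RepB-/- and at 6, 7 and 6 in the shallower WT libraries.

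Per length, the order of the main chains changed at a few places between the genotypes. The length deposited with the MEF counts is given per gene, 12426 bases for *Col1a2* and 8559 for *Col5a1*. It is not stated to be that of a transcript, and the order among chains rests on it. In TPM (reads per length scaled to a common total, computed from the counts and the gene length of the table) *Col1a1* stood first in both genotypes, at 5162 ± 338 in RepB-/- and 3771 ± 510 in WT (SD, n = 3), followed by *Col5a2*, *Col5a1* and *Col1a2*. *Col5a1* and *Col1a2*, the last of these, did not overlap in RepB-/- (1641 to 1740 and 1169 to 1534 TPM) and met at the edge in WT (1365 to 1669 and 1107 to 1367 TPM). Next in WT were *Col4a1* and *Col4a2*, at 1088 ± 109 and 888 ± 97.1, above *Col12a1* at 778 ± 82.4. In RepB-/- *Col12a1* came next at 1032 ± 21.7, above *Col4a1* at 705 ± 14.9, *Col6a1* at 694 ± 26.2 and *Col4a2* at 598 ± 23.0. The ranges of *Col4a1* and *Col6a1* overlapped in RepB-/- and did not in WT.

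Most genes of the machinery that makes collagen were called higher. Of 18 genes that modify and fold chains, 11 rose and 1 fell, with a median log2 fold change of 0.26. *Plod1*, a lysyl hydroxylase, *P4ha2*, a prolyl hydroxylase subunit, and *P3h3* rose by 0.55 ± 0.09, 0.47 ± 0.08 and 0.46 ± 0.07. *P4ha3*, another prolyl hydroxylase subunit, was the gene that fell (-2.04 ± 0.12). Of 18 tested genes for secretion, processing and crosslinking, 11 rose and 1 fell (median 0.34). *Adamts2*, which cuts the N-terminal propeptide of types I to III, rose by 1.03 ± 0.09. *Lox*, the crosslinking lysyl oxidase, rose by 0.74 ± 0.11, from 5882, 7703 and 7815 CPM in WT to 11575, 12870 and 11293 CPM in RepB-/-. *Sec23a* and *Mia3*, which carry procollagen out of the endoplasmic reticulum, rose by 0.55 ± 0.08 and 0.50 ± 0.08.

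Fibril-binding proteins had the highest median of the 6 lists. Of the 12 tested, 8 rose and none fell, with a median of 0.55. *Ogn*, *Dcn* and *Prelp*, small leucine-rich proteoglycans, rose by 1.49 ± 0.19, 1.31 ± 0.22 and 0.70 ± 0.08, and *Thbs2*, a thrombospondin needed for normal fibrils, rose by 1.05 ± 0.09. *Kera* was at 0 in every MEF library. Among the 9 collagen receptors tested, 4 rose and 2 fell. The integrin chains *Itga10* and *Itga2* fell (-1.08 ± 0.31 and -0.97 ± 0.13), while *Itga1* and the kinase receptor *Ddr2* rose (0.53 ± 0.16 and 0.44 ± 0.08). Basement membrane partners, the laminins and their linkers, were mixed, with 2 of 16 higher, 5 lower and a median of -0.18. The laminin chains *Lamb3* and *Lama2* fell (log2 -1.73 ± 0.25 and -0.70 ± 0.13), and *Lama4* rose by 0.46 ± 0.09. Ligands and targets of TGF-beta, a main inducer of collagen synthesis, split evenly, with 5 of 13 higher and 5 lower. The targets *Tgfbi* and *Postn* rose by 1.95 ± 0.19 and 1.52 ± 0.18, whereas *Skil*, an inhibitor of the pathway, and the ligand *Tgfb3* fell (-0.79 ± 0.12 and -0.75 ± 0.11). These counts can be read against the 19.4% of all genes that rose and the 19.7% that fell.

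**Figure D4:**
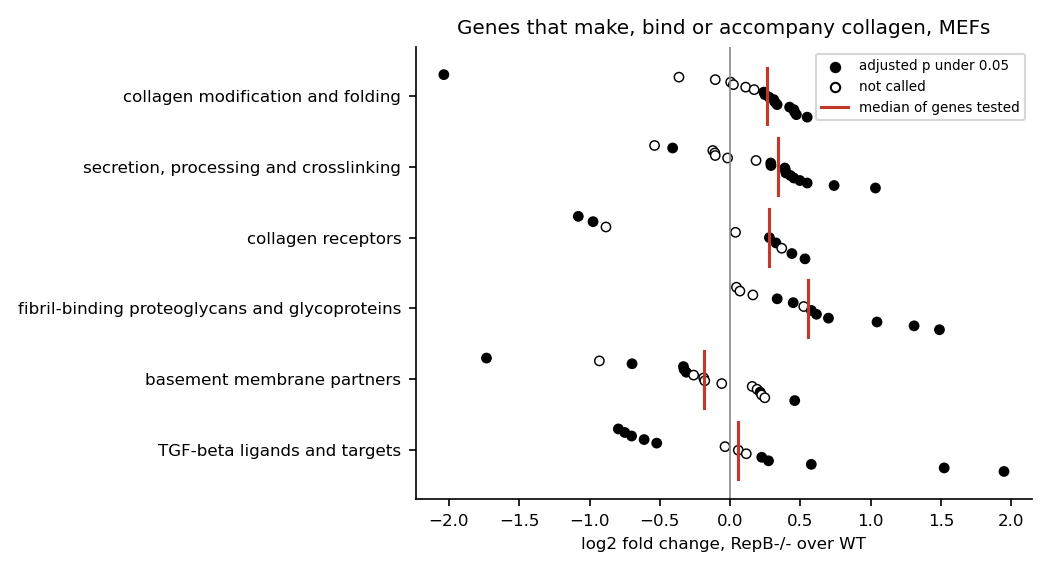
Log2 fold change of RepB-/- over WT in MEFs (horizontal axis) for each gene tested of 6 lists of genes that modify, export, bind or accompany collagen. Filled points passed an adjusted p of 0.05 and red lines are list medians, which run from -0.18 for basement membrane partners to 0.55 for fibril-binding proteins.

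The cells carried the markers of fibroblasts in both genotypes. The 8 fibroblast genes summed to 5880.0 to 6747 CPM in RepB-/- and 4659.9 to 6084 CPM in WT. *Vim* and *Pdgfrb*, named here after their values were seen, were at 3612 and 461 CPM or more in every library. *Pdgfra*, *Prrx1* and *Twist1* rose and *Thy1* fell, with *Pdgfra* the most changed (0.97 ± 0.08, from 99.2, 99.2 and 108 CPM in WT to 218, 201 and 182 CPM in RepB-/-). The lists of other cells were at lower levels. Keratinocyte and epithelial genes summed to 7.25 to 13.6 CPM in RepB-/- and 5.85 to 6.95 CPM in WT (1 of 6 tested higher), leukocyte genes to 26.4 to 30.8 CPM in RepB-/- and 22.9 to 31.1 CPM in WT (2 of 5 higher, 2 lower), and Schwann cell and neuronal genes to 5.61 to 7.04 CPM in RepB-/- and 10.02 to 11.8 CPM in WT (1 of 4 lower). Osteoblast genes summed to 93.4 to 106 CPM in RepB-/- and 74.7 to 81.6 CPM in WT (1 of 4 higher, *Alpl*, and 1 lower, *Ibsp*), skeletal muscle genes to 56.8 to 67.1 CPM in RepB-/- and 133 to 198 CPM in WT (2 of 4 lower, *Acta1* and *Myh3*) and adipocyte genes to 56.5 to 62.0 CPM in RepB-/- and 49.6 to 54.2 CPM in WT (1 of 3 higher, 2 lower). Of the lists for liver, hepatocyte and erythroid genes had no member tested in MEFs, and stellate cell, cholangiocyte and hepatoblast genes had 0, 2 and 1 higher and 2, 1 and 2 lower of 6, 5 and 3 tested. Cholangiocyte genes summed to 765 to 1116 CPM in RepB-/- and 1016 to 1161 CPM in WT. All these counts stand beside the 19.4% of all genes tested that rose and the 19.7% that fell. With so few genes per list, they were not tested against those shares.

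In liver, no collagen gene passed the test. Of the 33 tested, 23 had a log2 fold change above 0 and the median was 0.30, which moved from -0.30 without RepB-/- replicate 1 to 1.06 without WT replicate 1. Of these genes 2 were under an unadjusted p of 0.05, as were 3.12% of all 16080 genes tested, and none was under an adjusted p of 0.05 (0.0373% of all genes were). DESeq2 gave an adjusted p for 37 collagen genes and called 0 of them, with 3 under an unadjusted p of 0.05. It gave none for *Col1a1*. The biological coefficient of variation was 51.2% in liver and 9.06% in MEFs. Replicate 1 stood apart for many collagen genes. Both replicate 1 libraries lay above the other 4 libraries for 19 of the 33 collagen genes, and for 23.0% of all genes tested.

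The chains of types I and III were among these 19 genes. *Col1a1* was at 169.7, 28.5 and 21.9 CPM in RepB-/- replicates 1 to 3 and at 96.6, 6.64 and 8.03 CPM in WT, and replicate 1 averaged 8.19 times the mean of replicates 2 and 3. *Col1a2* was at 225, 56.1 and 29.3 CPM and 132, 20.1 and 20.8 CPM, and *Col3a1* at 662, 171 and 71.7 CPM and 421, 49.4 and 48.9 CPM, in the same order. For all 3 genes each RepB-/- library was above the WT library of its number, and replicate 1 was far above the rest. The log2 fold changes of 0.98 ± 1.24, 0.84 ± 1.01 and 0.80 ± 1.11 had large standard errors, and their sign turned when RepB-/- replicate 1 was left out (-0.55, -0.43 and -0.51). With replicate number as a block they were 1.45 ± 0.28, 0.91 ± 0.25 and 0.99 ± 0.32 (adjusted p = 0.415, 0.564 and 0.677). With the block and without both libraries of replicate 2 they were 1.12 ± 0.30, 0.63 ± 0.26 and 0.60 ± 0.29.

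**Figure D5:**
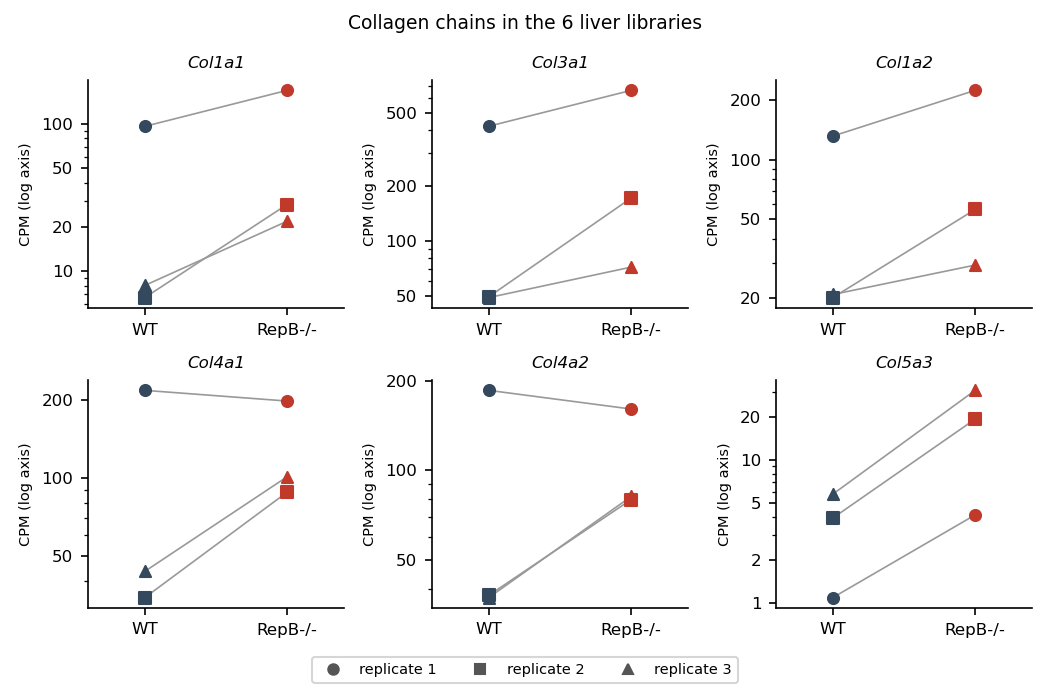
CPM on a log axis of 6 collagen chains in WT and RepB-/- liver, with lines joining libraries of the same replicate number. Replicate 1 (circles) is highest for the type I, III and IV chains and lowest for *Col5a3*, and RepB-/- is above WT in every pair except replicate 1 of *Col4a1* and *Col4a2*.

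Type IV chains in liver, where they line the sinusoids and vessels, gave no call either. *Col4a1* was at 197, 88.0 and 101 CPM in RepB-/- and at 217, 34.5 and 43.6 CPM in WT, and *Col4a2* at 161, 79.9 and 81.8 CPM and 186, 38.2 and 37.5 CPM. WT exceeded RepB-/- in replicate 1, and RepB-/- was more than 2 times WT in replicates 2 and 3. The log2 fold changes were 0.39 ± 0.75 and 0.30 ± 0.69, and without replicate 1 of both genotypes 1.28 and 1.10, still not called. With the block and without replicate 2 they were 0.53 ± 0.43 and 0.46 ± 0.43. X-linked *Col4a5* was at 16.5, 5.02 and 6.42 CPM in RepB-/- and at 12.001, 2.87 and 1.35 CPM in WT (log2 0.78 ± 0.85), with RepB-/- above WT in each pair and the groups overlapping, and differed by 1.31 ± 0.53 with the block and without replicate 2. *Col4a6* was at 43, 8 and 0 counts in RepB-/- and at 19, 2 and 0 in WT and was not tested. The glomerular chains *Col4a3* and *Col4a4* stayed between 0.310 and 2.13 CPM.

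*Col5a3* was not among those 19 genes. It was at 4.13, 19.3 and 30.6 CPM in RepB-/- and at 1.09, 3.93 and 5.77 CPM in WT, lowest in replicate 1 of either genotype, and RepB-/- was 3.54, 4.81 and 5.23 times WT in pairs 1 to 3 (0.1 CPM added to both). The groups overlapped by replicate 1, and the log2 fold change of 2.32 ± 0.85 had an unadjusted p of 0.0301. With the block it was 2.22 ± 0.22 (adjusted p = 0.0820), the smallest adjusted p of any collagen gene in that fit. With the block and without replicate 2 it was 2.17 ± 0.30 (adjusted p = 0.582, with 1 residual degree of freedom). The gene was singled out after its liver values had been seen, as was *Col6a5*, a chain related to type VI. *Col6a5* was at 6.28, 11.3 and 5.72 CPM in RepB-/- and at 4.10, 2.48 and 4.03 CPM in WT, and was the one collagen gene of the 33 tested whose genotypes did not overlap, as was the case for 8.05% of all genes tested (log2 1.14 ± 0.39, unadjusted p = 0.0228). Its highest value came from RepB-/- replicate 2, in which Y-linked genes were counted, and with the block and without replicate 2 the log2 difference was 0.56 ± 0.31.

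Same-numbered pairs gave the count over the whole family. Only replicate 1 was set apart by its number. Deviations of replicates 2 and 3 correlated across numbers (0.41 and 0.40) at least as well as within them (0.36 and 0.37), so their pairing is by label only. With a term for replicate 1 in place of the block, 0 collagen genes were called. RepB-/- was above WT in all 3 pairs for 15 of the 33 collagen genes and for 15.4% of all genes tested, and below WT in all 3 for 1 (*Col20a1*) and for 14.4%. Of the 15, 5 were fibrillar, 2 basement membrane and 8 other collagens, among them *Col6a1*, *Col6a2* and *Col6a3*. In pairs 1 and 3 alone, which leave out the library with Y-linked counts, RepB-/- was above WT for 15 of the 33 and for 26.6% of all genes. With the block, 11 of the 33 collagen genes and 6.7% of all genes were under an unadjusted p of 0.05, and no collagen gene was called. Without replicate 2 of both genotypes the numbers were 5 of 35 and 4.24%. All these genes share the same 6 libraries and are not independent.

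By class, liver collagen differed from MEF collagen. Basement membrane genes took 47.7 to 75.4% of collagen counts and fibrillar genes 12.9 to 39.4%, and *Col18a1*, which hepatocytes make, stood first per length in both genotypes at 276 ± 124 TPM in RepB-/- and 268 ± 69.4 in WT (values as deposited). *Col3a1* and *Col14a1* followed by their means, and *Col14a1* was above *Col3a1* in RepB-/- replicate 3 and in WT replicates 2 and 3. The fibrillar share was 39.4, 21.4 and 17.1% in RepB-/- and 32.6, 12.9 and 13.8% in WT. The genotypes overlapped, and replicate 1 was highest in each. *Col2a1* and *Col19a1* were at 0 counts in all 6 libraries. Of the other 9 genes not tested, 5 reached at most 4 to 13 counts, and *Col4a6*, *Col9a2*, *Col10a1* and *Col11a1* reached 43, 34, 45 and 41, the highest value being in a replicate 1 library for each.

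Markers of collagen-making cells in liver also moved with replicate number. The 8 fibroblast genes summed to 111, 57.9 and 39.6 CPM in RepB-/- replicates 1 to 3 and to 99.7, 52.2 and 38.4 CPM in WT, and the 7 stellate cell genes summed to 166 to 280.5 CPM in RepB-/- and 132 to 221 CPM in WT. The fetal hepatoblast genes summed to 5984 CPM in RepB-/- replicate 1 and 4766 CPM in WT replicate 1, and to 22.5 CPM or less in the others. Smooth muscle genes summed to 30.0 to 84.2 CPM in RepB-/- and 15.5 to 104 CPM in WT, endothelial genes to 211 to 363 CPM in RepB-/- and 206 to 355 CPM in WT, leukocyte genes to 243 to 293 CPM in RepB-/- and 243 to 316 CPM in WT and cholangiocyte genes to 44.4 to 74.1 CPM in RepB-/- and 40.6 to 57.3 CPM in WT. Erythroid genes summed to 4504, 2249 and 1394 CPM in RepB-/- replicates 1 to 3 and to 1625, 312 and 258 CPM in WT, higher in RepB-/- in every pair, and 6 of the 8 genes were above WT in all 3 pairs (7 in pairs 1 and 3). Stellate cell genes were above WT in all 3 pairs for 2 of 7 and in pairs 1 and 3 for 5, and fibroblast genes for 1 and 2 of 7. Hepatocyte genes were high throughout (125878 to 197626 CPM in RepB-/- and 115323 to 147118 CPM in WT). Of the chondrocyte, osteoblast, skeletal muscle, keratinocyte, adipocyte and Schwann cell lists, 2, 2, 0, 3, 1 and 2 genes were tested. No gene of any list was called in liver, and their part in the collagen values was not tested. Of the genes that make and bind collagen, none was called among the 17 modification, 16 processing, 9 receptor, 12 fibril-binding, 16 basement membrane and 12 TGF-beta genes tested, and RepB-/- exceeded WT in all 3 pairs for 4, 4, 4, 8, 5 and 4 of them in the same order. In pairs 1 and 3 alone these counts were 6, 5, 4, 9, 6 and 6. Over all genes tested in liver, RepB-/- was above WT in all 3 pairs for 15.4% and in pairs 1 and 3 for 26.6%.

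The tissues were compared by the interaction of tissue and genotype over the 12 libraries. Of 41 collagen genes tested, 0 had an adjusted p under 0.05 in edgeR, and 0.388% of all 15208 genes had one. The difference of log2 fold changes, MEF minus liver, was -0.44 ± 1.39 for *Col1a1*, -0.94 ± 0.84 for *Col4a1* and -0.80 ± 0.77 for *Col4a2*, with adjusted p of 0.961, 0.681 and 0.712. Opposite signs in the tissues, as for *Col4a1* and *Col4a2*, were thus not shown to differ. With replicate number as a block within tissue, 2 collagen genes were called, *Col5a3* (-1.57, adjusted p = 0.0309) and *Col10a1* (-4.20, adjusted p = 0.0309), among 192 of all genes. *Col10a1* had at most 5 counts in 5 of the 6 liver libraries. Leaving out 1 library at a time gave 0 to 3 collagen genes, the 3 being without WT liver replicate 1.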

How the data were processed

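RNA-seq was analysed for 12 libraries, 3 per genotype in MEFs and liver; 6 brain libraries were not analysed here. Per the labels, poly(A) libraries were made with a VAHTS kit, and the submitters' processing notes name Trim Galore 0.4.1, STAR 2.7.0, HTSeq 0.12.4 and deepTools 3.5.0, whereas the study's methods name Cutadapt, Hisat2 and stranded paired reads. Which of them made which table is not given in the sources used here. The authors deposited raw read counts per gene, used for every test, FPKM values, which were not used, and TPM values for liver. TPM in MEFs was computed from the counts and the gene length deposited with them. The deposited columns of the authors' own comparisons (fold changes and p-values) were not used. Coordinates lie on GRCm39 in MEFs and on GRCm38 in liver.

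Each tissue was fitted with edgeR 4.0.16 in R 4.3.3 (TMM scaling, filterByExpr, quasi-likelihood test, Benjamini-Hochberg adjustment over all genes tested, called at 0.05), and the tissues together with an interaction term. Errors of log2 fold changes are standard errors. DESeq2 1.42.0, other scalings and filters, a replicate block and leaving out each library were the alternatives. Deviations of same-numbered libraries correlated at 0.71, 0.36 and 0.37 in liver, where numbers were taken as pairs (replicates 2 and 3 also correlated across numbers, at 0.41 and 0.40), and at -0.01, -0.04 and -0.0035 in MEFs, where they were not. The fits were also run on simulated counts with known changes. These counts had the same spread for every gene and no difference between replicate numbers. They thus cannot show how the fits behave with the replicate differences seen in liver. Labels do not say that replicates are separate animals or cultures, so p-values measure the spread between these libraries. Counts in MEFs numbered 11540344 to 20587556 per library and in liver 37682201 to 51542709. The members and gene lists were chosen with earlier results of these data known. Per-library values are given for collagen genes called in either tissue, for types I, III and IV and for X-linked members, and up to 4 called genes with the largest changes are named from each list. A gene that this rule would name is not reported here.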

Additional observations from a re-analysis of the deposited data

How the results depend on the processing

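In MEFs the counts of 10 collagen genes higher and 10 lower moved little. DESeq2 gave 9 higher, no filter on low counts 14, and leaving out each library in turn 8 to 12 higher and 7 to 11 lower. The replicate block gave 10 and 10. Among single genes, *Col11a1*, *Col18a1*, *Col4a4*, *Col5a2* and *Col8a2* lost their call under at least 1 alternative, and *Col1a2* was called with no filter (0.22, adjusted p = 0.0413). Without 1 library the log2 fold change ran from -0.45 to 0.28 for *Col4a3* and from -0.23 to 0.022 for *Col4a5*.

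Liver values depended on single libraries. Leaving out each in turn, *Col1a1* ran from -0.55 to 3.32, *Col1a2* from -0.43 to 2.34, *Col3a1* from -0.51 to 2.62, *Col4a1* from -0.056 to 1.72 and *Col4a2* from -0.10 to 1.51, the highest without WT replicate 1 and the lowest without RepB-/- replicate 1, and 0 collagen genes were called each time. Among all genes, 6 were called in liver, 80 by DESeq2, 0 with no filter, 2 with a mean of at least 40 counts, 2 without replicate 1 of both genotypes, and 0 to 4 without 1 library. With the replicate block 8 genes were called, and in 2 fits added after seeing the data 0 (block, without replicate 2) and 3 (a term for replicate 1, without RepB-/- replicate 2). The tissue difference was called for 0 collagen genes and 59 of all genes, with the replicate block for 2 and 192, and without 1 library for 0 to 3 and 1 to 428. The causes were not tested. Within a tissue the block changed the call of *Col5a2* in MEFs (0.28, adjusted p = 0.0872), which was lost, and of *Col24a1* (0.49, adjusted p = 0.0486), which was gained, and of no other collagen gene. Liver libraries were deeper than MEF libraries and varied more (biological coefficient of variation 51.2 against 9.06%), so that small differences in liver were not detectable here.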
